A study of Mus musculus with 3 samples.

Results

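The genes C1qa, C1qb, C1qc, C3, C3ar1, C5ar1, Itgam and Itgb2, which encode complement proteins and their receptors, were examined in scRNA-Seq of microglia from mouse lumbar spinal cord. These 8 genes were taken by their symbol and occupied 9 of the 27998 gene rows of the matrix because 2 rows carry the symbol Itgam. C1qa, C1qb and C1qc were among the 9 genes with most UMIs (unique molecular identifiers, each counting 1 transcript molecule) in each of 3 libraries. C3ar1, C5ar1, Itgam and Itgb2 were found at under 1 UMI per cell at equal depth, and C3 was almost not found.

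The study asked how microglia proliferate after a peripheral nerve injury. YFP (+) cells were sorted by FACS, with size selection and doublet exclusion, from lumbar cords of young adult mice heterozygous for Cx3cr1-creER-yfp (Cx3cr1-creER-yfp/+) that were naive, or that had their sciatic nerve cut 24 h or 48 h before. In all groups CreER and YFP were expressed from the Cx3cr1 locus, so the gate took cells by the activity of a fractalkine receptor allele and used no complement gene. Each group pooled the cells of 3 animals, per the methods, and gave 1 library. The methods place all experiments after a course of tamoxifen, given for recombination, and do not set these animals apart. Cells of the libraries carry a barcode suffix of 1, 2 or 3, and no source used here ties a suffix to naive, 24 h or 48 h. They are therefore called library 1, 2 and 3 of unknown time point, and with 1 library per group no test between libraries was possible. All 95% intervals given reflect counting error alone and leave out how animals vary. Those of UMI counts and of their ratios and shares also leave out how cells vary beyond counting error.

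Library 1 held 609 cells with a median of 2218 UMIs, library 2 held 3591 cells with 5952 and library 3 held 3322 cells with 5742. Library 1 thus stood apart in depth, and each cell was thinned to 2000 UMIs, which left 408, 3569 and 3284 cells. Pairs of libraries shared 3 to 19 barcodes, and 51 cells carried such a barcode. The 10 microglia marker genes summed to 46.6 to 55.1 UMIs per thinned cell, against at most 0.0147 for monocyte and 0.00364 for perivascular macrophage markers, with Cd163 and Lyve1 at 0. Astrocyte markers reached 0.299 UMIs per thinned cell (library 1), oligodendrocyte markers 0.154 (library 1), lymphocyte markers 0.145 (library 2) and endothelial markers 0.0630 (library 3), and 558 cells held at least 2 genes of another cell type. Without these cells the summed C1q ratios were 1.29 for library 2 over library 1, 1.14 for library 3 over library 1 and 0.881 for library 3 over library 2. Library 3 held 63.4 UMIs of 21 immediate early genes per thinned cell, against 7.14 in library 1 and 7.87 in library 2. Heat shock genes summed to 1.42, 2.82 and 5.83 in libraries 1, 2 and 3.

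Complement is a cascade of plasma and tissue proteins that marks surfaces for removal and calls in immune cells. C1q, assembled from A, B and C chains, binds targets such as immune complexes and synapses and starts the classical pathway, which leads to cleavage of C3. The C3a and C5a fragments signal through the G protein-coupled receptors encoded by C3ar1 and C5ar1, whereas fragments of C3 left on a surface are bound by CR3, the integrin of CD11b (Itgam) and CD18 (Itgb2). In the central nervous system microglia are the main source of C1q, and CR3 on microglia takes part in synapse removal.

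The 3 C1q genes lie side by side on the minus strand of chromosome 4 (GENCODE M21, GRCm38), within 18.7 kb. C1qb spans 136880129 to 136886187, C1qc 136889804 to 136893065 and C1qa 136895917 to 136898803. To show what lies before adjacent C1q genes, the 250 bases before the RefSeq start of C1qb (chr4:136886201-136886450) and C1qc (chr4:136892915-136893164) are given for the minus strand of GRCm38.p6. Capitals mark GAGGAA or its reverse complement TTCCTC, the core of the purine-rich box bound by ETS factors such as PU.1, searched on both strands.
C1qb: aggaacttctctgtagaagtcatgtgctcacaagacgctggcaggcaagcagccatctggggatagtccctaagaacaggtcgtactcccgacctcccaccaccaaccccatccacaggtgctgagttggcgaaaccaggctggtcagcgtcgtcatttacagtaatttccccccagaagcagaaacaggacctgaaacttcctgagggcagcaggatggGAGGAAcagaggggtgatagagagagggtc
C1qc: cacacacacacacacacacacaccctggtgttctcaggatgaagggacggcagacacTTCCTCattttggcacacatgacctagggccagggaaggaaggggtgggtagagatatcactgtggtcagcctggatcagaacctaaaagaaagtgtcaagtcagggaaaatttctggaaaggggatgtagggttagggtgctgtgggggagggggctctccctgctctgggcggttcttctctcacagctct
The C1qb sequence held the motif once, 30 bases before its RefSeq start, and the C1qc sequence once, 193 bases before its RefSeq start. The RefSeq start of C1qc lies inside the GENCODE span given above. Most of the C1qc window therefore falls within the gene as GENCODE places it, and the match lies nearer to the GENCODE start. Of the 32851 RefSeq promoters of this length, 23.3% held the motif at least once. Of the 8 genes, 6 matched the promoter table, and 3 of these held it, Itgam being the other one, with matches 84 and 15 bases before its start. A match is a match of letters and not evidence of binding.

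C1qa, the gene of the A chain, was counted at 24.3 UMIs per thinned cell in library 1, 33.5 in library 2 and 31.0 in library 3. In all deposited cells without thinning this was 12311, 16567 and 15411 CPM (UMIs per 1000000), the third highest gene in each library. C1qb, the gene of the B chain, stood at 20.5, 28.4 and 23.8 UMIs per thinned cell. C1qc, the gene of the C chain, stood at 18.3, 19.5 and 17.1. For each of the 3 genes the level was higher in library 2 than in library 1 and higher in library 2 than in library 3.

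Summed over the 3 genes, C1q took 3.17% of all UMIs in library 1, 4.04% in library 2 and 3.58% in library 3. At equal depth the sum was 63.1 (95% Poisson interval 62.3 to 63.9), 81.4 (81.1 to 81.7) and 71.9 (71.6 to 72.2) UMIs per thinned cell. Library 2 was 1.29-fold higher than library 1 (95% interval 1.27 to 1.31) and library 3 was 1.14-fold higher (1.13 to 1.15). Library 3 stood at 0.883 times library 2 (0.878 to 0.888). All 3 differences exceeded counting error.

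The C1q genes did not differ to the same extent. Library 2 was 1.38-fold higher than library 1 for C1qa (95% interval 1.35 to 1.41) and 1.38-fold for C1qb (1.35 to 1.41), but 1.07-fold for C1qc (1.04 to 1.09). With cells thinned to 3000 UMIs, which left 69 cells of library 1, these ratios were 1.34 for C1qa, 1.24 for C1qb and 1.09 for C1qc. With 1000 UMIs the ratios were 1.34, 1.39 and 1.04, and in CPM without thinning 1.35, 1.38 and 1.06. The likeness of C1qa and C1qb and the size of their gap to C1qc thus held in these settings. They changed at 3000 UMIs, where depth and the cells kept differ together. Among all C1q UMIs of thinned cells, C1qc made up 29.0% in library 1 (28.4 to 29.5, exact binomial), 23.9% in library 2 and 23.8% in library 3. The share of C1qa was 38.5%, 41.2% and 43.1%, and that of C1qb 32.5%, 34.9% and 33.1%. In cells with 2000 to 3500 UMIs before thinning, a choice made after the data were seen, C1qc made up 29.1%, 23.9% and 24.0%. These were 380, 170 and 193 cells, with median depths before thinning of 2456.5, 3019 and 3078 UMIs. Depth was thus nearer but not equal, and its part in the gap to library 1 was not tested. The 0.937-fold level of C1qc in library 3 against library 1 (0.915 to 0.960) turned to 1.03-fold in those cells.

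**Figure D1:**
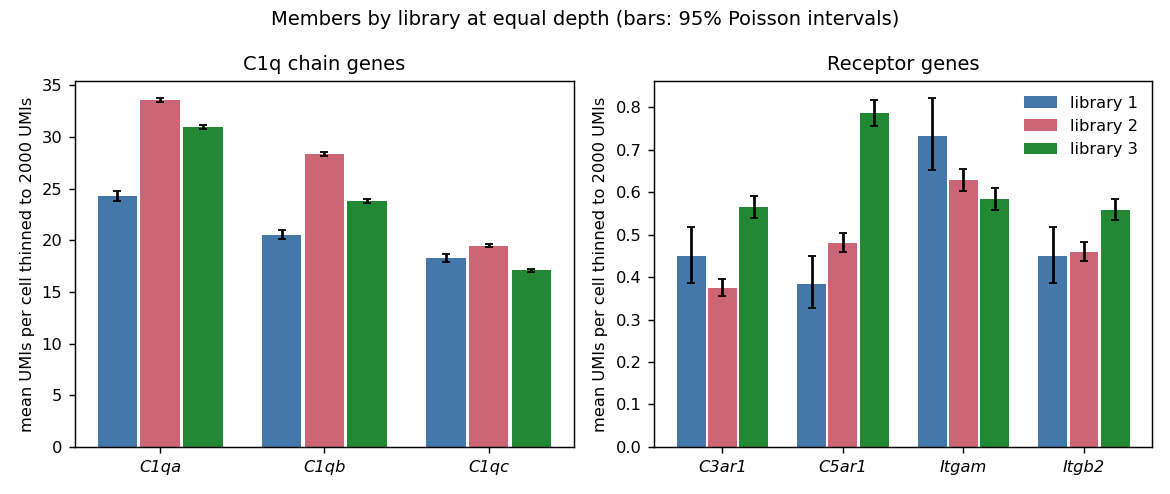
Mean UMIs per cell thinned to 2000 UMIs (y axis, linear, with a different range in each panel) of the C1q genes (left) and the receptor genes (right) in libraries 1 to 3 of unknown time point; error bars are 95% Poisson intervals of the summed counts. C1qa is lowest in library 1 at 24.3 and highest in library 2 at 33.5, and C5ar1 is lowest in library 1 at 0.385 and highest in library 3 at 0.786.

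The C1q transcripts were present in nearly every cell. Without thinning, C1qa was found in 99.5% of the cells of library 1 and in all cells of libraries 2 and 3. C1qa was missing from 3 cells, C1qb from 3 and C1qc from 9, all of them in library 1 and none above 793 UMIs. Over the thinned cells of library 2 the summed C1q UMIs had a 10th percentile of 68, a median of 81 and a 90th percentile of 96, with a range of 3 to 146. In library 3 these were 59, 71 and 85, with a range of 0 to 127, and in library 1 they were 46, 62.5 and 80, with a range of 18 to 123. The upper part of library 1 therefore overlapped the lower part of library 2, while the median of library 1 lay below the 10th percentile of library 2.

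Spread over cells was wider in library 1. The coefficient of variation of the summed C1q UMIs over thinned cells was 23.5% in library 1, 14.1% in library 2 and 14.6% in library 3, and the variance was 3.48, 1.61 and 1.53 times the mean. Spread also differed with depth before thinning. Among cells with 2000 to 3500 UMIs the coefficient of variation was 22.8%, 18.1% and 18.9%. Fewer than 30 C1q UMIs were left in 3 thinned cells from library 1 and in 1 cell from each other library. This limit was chosen after the values were seen. The cell of library 2 held 4 UMIs of the 10 microglia marker genes and that of library 3 held 11, against medians of 46 and 52 in the rest. In library 1 the median was 29, against 56 in the rest. The cell of library 2 also held at least 2 genes of another cell type. Whether these cells are microglia was not tested.

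**Figure D2:**
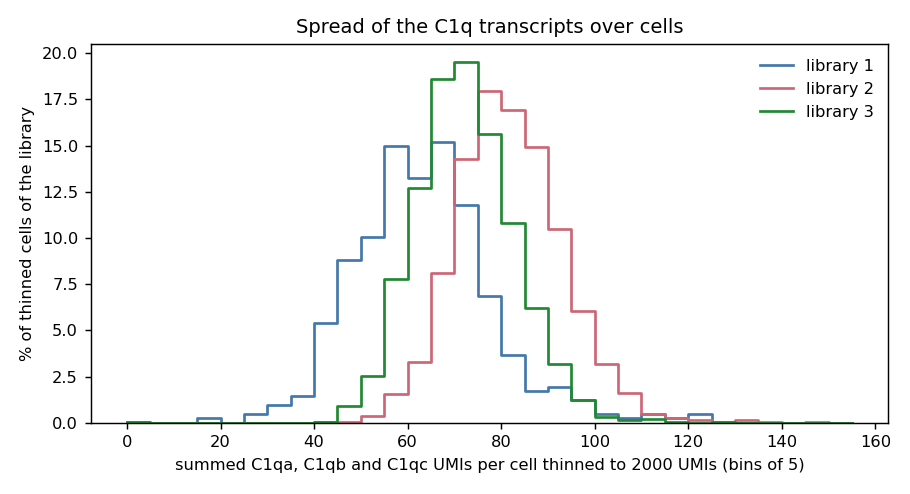
Distribution of the summed C1qa, C1qb and C1qc UMIs per cell thinned to 2000 UMIs (x axis, bins of 5 UMIs) as % of the thinned cells of each library (y axis); lines are libraries 1 to 3. Each library forms 1 peak, with medians of 62.5, 81 and 71 UMIs, and the distributions overlap.

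Within a library, cells with more UMIs of 1 C1q gene tended to hold more of the others. Over the 408 thinned cells of library 1, Pearson's r was 0.35 for C1qa and C1qb, 0.43 for C1qa and C1qc and 0.43 for C1qb and C1qc. It was 0.15 to 0.17 over the 3569 cells of library 2 and 0.13 to 0.15 over the 3284 cells of library 3. These values are descriptions, as cells of 1 library share their preparation and each thinned cell holds the same total. C1q genes with receptor genes gave r between -0.07 and 0.06 in all libraries, and receptor genes with each other between -0.04 and 0.11. The receptor genes were counted at under 1 UMI per thinned cell, with a variance of 1.01 to 1.52 times the mean. Such counts hold mostly counting error, which keeps r near 0, so these r cannot show whether the receptor genes vary with other genes.

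Of 462 genes with at least 0.5 UMIs per thinned cell in each library, Cst3 followed the summed C1q UMIs most closely, with r of 0.41, 0.30 and 0.31 in libraries 1, 2 and 3. Cst3 encodes the protease inhibitor cystatin C. Ctss, the lysosomal protease cathepsin S, came next with 0.33, 0.24 and 0.22. Itm2b reached 0.30, 0.16 and 0.11, B2m, the light chain of class I molecules, 0.24, 0.15 and 0.13, and the tetraspanin Cd81 0.20, 0.16 and 0.13. All 5 are among abundant transcripts, with 6.10 to 122 UMIs per thinned cell.

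C3, the central component whose cleavage all activation pathways share, was not found in 609 cells of library 1, which allows a share of cells with a UMI of up to 0.493%. It was found as single UMIs in 7 cells of library 2 (0.195%, 95% exact binomial interval 0.0784 to 0.401%) and in 1 cell of library 3 (0.0301%). The C3 gene lies on chromosome 17 (57203970 to 57228136). The 7 cells of library 2 held 182 to 569 C1q UMIs, 3.14% to 5.32% of their transcripts. The cell of library 3 stood apart, with 8 C1q UMIs among 3973 and 1.04 UMIs per detected gene, against a median of 2.48 in its library. A difference in C3 between libraries was not detectable at this depth.

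C3ar1, the receptor for C3a (chromosome 6, 122847138 to 122856161), was counted at 0.449 (95% Poisson interval 0.386 to 0.518), 0.375 (0.355 to 0.396) and 0.565 (0.539 to 0.591) UMIs per thinned cell in libraries 1, 2 and 3. Library 3 was thus 1.51-fold higher than library 2 (95% interval 1.40 to 1.62) and 1.26-fold higher than library 1 (1.08 to 1.47). Library 2 stood at 0.836 times library 1 (0.716 to 0.981), but at 1.04 times when cells were thinned to 3000 UMIs, which left 69 cells of library 1. At that depth library 3 was 1.65-fold higher than library 1. In CPM of all deposited cells library 2 stood at 0.798 times library 1 (0.709 to 0.901). The order of libraries 1 and 2 turned at 3000 UMIs alone and was therefore not the same at every depth. Library 3 was the highest at each depth used.

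C5ar1, the receptor for C5a (chromosome 7, 16246743 to 16259540), stood at 0.385 (0.327 to 0.450), 0.481 (0.458 to 0.504) and 0.786 (0.756 to 0.817) UMIs per thinned cell in libraries 1, 2 and 3. The intervals of the 3 libraries did not overlap. Library 3 was 2.04-fold higher than library 1 (95% interval 1.74 to 2.42) and 1.63-fold higher than library 2 (1.54 to 1.74). Library 2 was 1.25-fold higher than library 1 (1.06 to 1.48). C3ar1 and C5ar1 were the genes past 1.5 times in library 3 against library 2, and the 250 bases before their RefSeq starts (C3ar1, chr6:122856158-122856407; C5ar1, chr7:16259339-16259588; minus strand, GRCm38.p6) are given to set them beside the C1q sequences.
C3ar1: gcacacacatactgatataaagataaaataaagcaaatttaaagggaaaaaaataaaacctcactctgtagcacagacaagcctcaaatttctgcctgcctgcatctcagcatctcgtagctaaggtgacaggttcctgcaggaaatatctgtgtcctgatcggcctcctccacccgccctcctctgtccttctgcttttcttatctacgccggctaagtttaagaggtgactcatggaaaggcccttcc
C5ar1: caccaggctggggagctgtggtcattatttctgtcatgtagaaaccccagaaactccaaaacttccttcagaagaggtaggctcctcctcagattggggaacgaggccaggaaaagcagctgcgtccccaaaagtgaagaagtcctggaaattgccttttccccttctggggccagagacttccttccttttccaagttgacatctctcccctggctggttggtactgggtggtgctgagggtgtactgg
Neither of them held GAGGAA or TTCCTC, which says only that these letters are not in this window. The RefSeq start of C5ar1 lies inside the GENCODE span given above. Most of the C5ar1 window therefore falls within the gene as GENCODE places it, and the C3ar1 window overlaps the GENCODE span of C3ar1 at its edge.

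Itgam, the gene of CD11b (chromosome 7, 128062640 to 128118491), went the other way. It was counted at 0.733 (0.652 to 0.821), 0.628 (0.603 to 0.655) and 0.583 (0.558 to 0.610) UMIs per thinned cell in libraries 1, 2 and 3. Library 2 stood at 0.858 times library 1 (0.760 to 0.971) and library 3 at 0.796 times (0.704 to 0.902). The second row with the symbol Itgam is named Gm49368 in GENCODE M21 and spans 128062683 to 128128160 on the same strand, so that it overlaps Itgam. It held 2.59% of the UMIs of both rows. How reads from the shared stretch were counted is not given in the sources used here, so the level of Itgam is uncertain, and its ratios between libraries were 0.812 to 0.939 with both rows summed.

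Itgb2, the gene of CD18 (chromosome 10, 77530252 to 77565708), stood at 0.449 (0.386 to 0.518), 0.459 (0.437 to 0.482) and 0.559 (0.533 to 0.585) UMIs per thinned cell in libraries 1, 2 and 3. CD18 pairs with CD11b in CR3 and also with other alpha chains. Library 3 was 1.22-fold higher than library 2 (1.14 to 1.30) and 1.25-fold higher than library 1 (1.07 to 1.46), and libraries 1 and 2 did not differ beyond counting error (1.02-fold, 0.878 to 1.20). The genes of the 2 chains of CR3 thus did not share an order over libraries, Itgam being lowest and Itgb2 highest in library 3.

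Over the 5383 genes with a mean of at least 0.05 UMIs per thinned cell, which hold 7 of the 8 genes, 1.5 times in either direction was used as the limit of size, with a pseudocount of 0.002 UMIs. In library 2 against library 1 none of the 7 passed it, where 11.6% of all genes were higher and 13.7% lower by that size. In library 3 against library 1 only C5ar1 was higher, and none was lower, where 10.8% and 15.3% of all genes were. Library 1 held only 408 thinned cells, so counting error can carry more genes past the limit in ratios against it. How many was not tested. In library 3 against library 2 the fold was rarer, at 3.05% of all genes higher and 3.03% lower, and C3ar1 and C5ar1 were among the higher ones. C5ar1 exceeded 97.9% and C3ar1 97.0% of all tested genes in that ratio. Among cells with at most 1 replication and 1 mitosis gene found, C5ar1 was 1.53-fold and C3ar1 1.49-fold higher in library 3 than in library 2. In cells with 2000 to 3500 UMIs C3ar1 was 1.45-fold higher, and C1qa passed 1.5 times in library 2 against library 1, at 1.52-fold.

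**Figure D3:**
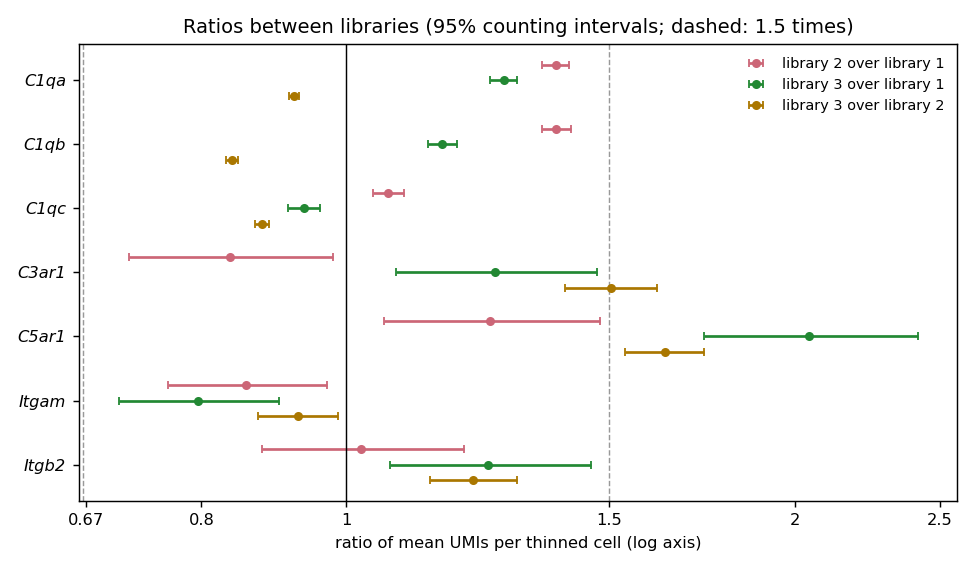
Ratio of mean UMIs per thinned cell between libraries (x axis, log scale) for the 7 genes tested (y axis); points are ratios, bars 95% counting intervals, and dashed lines mark 1.5 times in either direction. C5ar1 lies past the line at 2.04 for library 3 over library 1 and at 1.63 for library 3 over library 2, and C3ar1 at 1.51 for library 3 over library 2.

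Shares of cells with a receptor transcript depended strongly on depth. Without thinning, C5ar1 was found in 31.2%, 72.6% and 83.7% of cells (libraries 1, 2 and 3), and after thinning in 28.2%, 37.1% and 52.6%. C3ar1 was found in 31.7%, 66.7% and 76.9% before and in 31.9%, 31.3% and 42.1% after thinning. For Itgam the order turned: 54.5%, 80.9% and 77.3% of cells became 50.5%, 45.8% and 43.5%. Itgb2 went from 36.9%, 73.7% and 77.8% to 33.3%, 35.8% and 42.7%. No group of cells that should lack these genes was found in the matrix, so the share that free RNA alone would give was not measured.

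**Figure D4:**
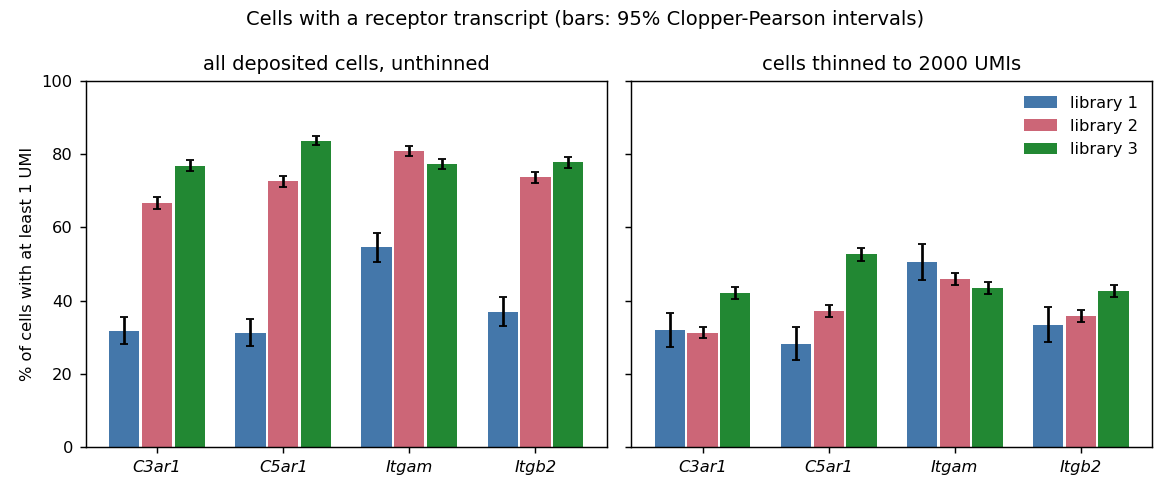
Percentage of cells with at least 1 UMI (y axis, 0 to 100%) of C3ar1, C5ar1, Itgam and Itgb2 in libraries 1 to 3, in all deposited cells without thinning (left) and in cells thinned to 2000 UMIs (right); error bars are 95% Clopper-Pearson intervals. Library 1 is far below the others for C3ar1 on the left, at 31.7%, and at 31.9% against 31.3% in library 2 on the right.

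Transcripts of both chains of CR3 were found together in 16.2%, 17.0% and 19.2% of thinned cells of libraries 1, 2 and 3. This was 0.961, 1.03 and 1.03 times the number expected if Itgam and Itgb2 were found independently of each other in the thinned cells. C3ar1 and C5ar1 were found together in 10.3%, 11.6% and 22.5% of thinned cells, 1.15, 1.003 and 1.02 times that number. At under 1 UMI per thinned cell, finding a gene depends largely on sampling. These numbers therefore cannot show whether the genes of a pair vary together over cells. At least 1 of the 4 receptor genes was missed in most cells, and all 4 were found in 1.47%, 2.07% and 4.66%. None of the 4 was found in 18.4%, 15.0% and 9.74% of thinned cells.

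Immediate early genes, which moved with library 3, were set beside these values within each library. In library 3 the third of cells with fewest early gene UMIs (38.1 per thinned cell) held 0.803 C5ar1 UMIs and 0.526 C3ar1 UMIs per cell, and the third with most (90.3) held 0.717 and 0.595. Both sets of cells lay above the level of library 2 for both genes. Both also held more early gene UMIs than the third of library 2 with most (11.9 per thinned cell). No cells of like early gene level were therefore compared between these libraries. The summed C1q UMIs were 75.2 in the former and 68.9 in the latter (0.917-fold, 95% interval 0.908 to 0.926), both between library 1 and library 2. In library 2 the same split gave 81.9 and 81.2. The part of the early and heat shock genes in the differences between libraries was not tested.

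To compare dividing and other cells, cells were called mitotic with at least 3 of 25 mitosis genes found after thinning, replicating with at least 3 of 24 replication genes and fewer than 3 mitosis genes, and other with at most 1 gene of each list. Neither list holds a complement gene. Library 2 had 856 mitotic, 577 replicating and 1086 other cells, with 1050 cells near the cut that were placed in no class. Library 3 had 160 replicating, 2724 other and 4 mitotic cells, and library 1 had 6 replicating and 1 mitotic cells, so classes with at least 50 cells were compared in libraries 2 and 3.

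Dividing cells of library 2 kept C1q at close to the level of other cells. The sum of C1qa, C1qb and C1qc was 79.1 UMIs per thinned cell in mitotic (95% Poisson interval 78.5 to 79.7), 80.6 in replicating (79.8 to 81.3) and 82.7 in other cells (82.2 to 83.3). Mitotic cells stood at 0.956 times other cells (95% interval 0.947 to 0.966) and replicating cells at 0.974 times (0.963 to 0.985). C1qa stood at 32.6, 33.3 and 34.0, C1qb at 27.6, 28.0 and 28.8, and C1qc at 18.9, 19.3 and 19.9 UMIs per thinned cell in mitotic, replicating and other cells. In each of the 3 genes the mitotic cells were the lowest and the other cells the highest. Over all cells of library 2 the C1q share of UMIs also fell with depth. It was 4.15% in cells of 2000 to 4000 UMIs and 3.88% in those of at least 12000. The part of depth in these class ratios was not tested.

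Dividing cells held more transcripts in all, and more C1q transcripts with them. Their median depth before thinning was 7544 UMIs in mitotic, 6524 in replicating and 5598 in other cells of library 2. Without thinning, mitotic cells held 318.5 C1q UMIs, replicating cells 283.5 and other cells 246.5, 1.29-fold and 1.15-fold more than other cells. The lower share and the higher count per cell thus stand side by side. The part of depth per cell in these counts was not tested.

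In thinned cells the receptor genes did not differ between the classes of library 2 beyond counting error. C3ar1 stood at 0.331, 0.362 and 0.378 UMIs per thinned cell in mitotic, replicating and other cells, the mitotic ratio being 0.874 (0.748 to 1.02). C5ar1 stood at 0.442, 0.508 and 0.496, with a mitotic ratio of 0.890 (0.778 to 1.02). Itgam was counted at 0.667, 0.646 and 0.612 (1.09, 0.972 to 1.22), and Itgb2 at 0.479, 0.463 and 0.431 (1.11, 0.971 to 1.27). The mitotic Itgb2 ratio lay below 1 with another thinning seed (0.916) and at 3000 UMIs (0.894), so thinned cells do not fix its direction. From unthinned counts divided by the total, which use more UMIs, the mitotic ratios were 0.890 for C3ar1 and 0.946 for C5ar1. They were 1.05 for Itgam and 1.09 for Itgb2. No intervals were computed for these ratios of shares, so smaller differences than thinned cells resolve were not assessed. In UMIs per cell without thinning, which rise with depth, mitotic over other cells gave 1.22 for C3ar1 (1.12 to 1.32) and 1.29 for C5ar1 (1.21 to 1.39). Itgam stood at 1.44 (1.36 to 1.53) and Itgb2 at 1.49 (1.39 to 1.60), beside 1.29 for summed C1q. In replicating over other cells, Itgam (1.06, 0.927 to 1.20) was 1.21 with another thinning seed and 1.03 at 3000 UMIs. Itgb2 (1.07, 0.920 to 1.25) was 1.26 with 5 list genes, 1.09 from unthinned counts divided by the total and 0.946 at 3000 UMIs.

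**Figure D5:**
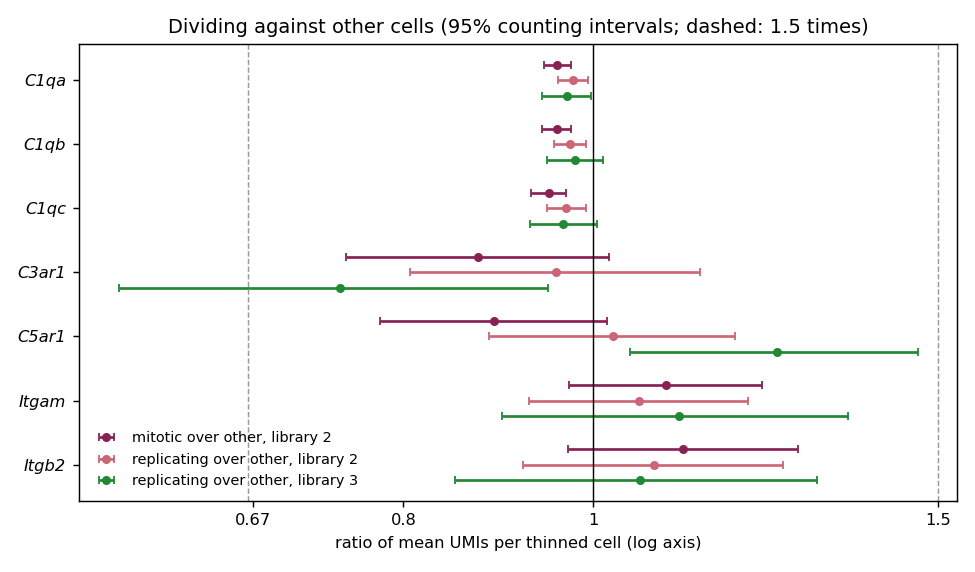
Ratio of mean UMIs per thinned cell of mitotic or replicating over other cells of the same library (x axis, log scale) for the 7 genes tested (y axis); points are ratios, bars 95% counting intervals, and dashed lines mark 1.5 times. The C1q ratios lie between 0.949 and 0.979, and the receptor ratios between 0.743 and 1.24 with wider intervals.

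In library 3 the summed C1q UMIs were 70.0 in replicating and 72.1 in other cells, 0.972 times (95% interval 0.953 to 0.990). After thinning, C1q was found in 99.4% of the 160 replicating cells and 100% of the other cells. The replicating cell left without C1q was the cell with a C3 UMI that stood apart. The summed C1q ratio without that cell was not computed. C5ar1 stood at 0.944 UMIs per thinned cell in replicating (0.799 to 1.11) and 0.761 in other cells (0.728 to 0.794), 1.24-fold higher (1.04 to 1.46). C3ar1 stood at 0.419 (0.325 to 0.532) and 0.564 (0.536 to 0.593), 0.743 times (0.573 to 0.949). With at least 2 in place of 3 list genes, which made 547 cells replicating, C3ar1 turned to 1.01 times. It was 0.974 times from unthinned counts divided by the total, 0.981 at 3000 UMIs and 0.893 with another thinning seed. Without cells of over 15000 UMIs it was 0.742. Itgam, at 1.11 times (0.898 to 1.35), and Itgb2, at 1.06 times (0.850 to 1.30), did not differ beyond counting error. None of the 7 genes passed 1.5 times in any of these comparisons. Of all genes, 3.08% did between mitotic and other cells and 2.86% between replicating and other cells of library 2. Between replicating and other cells of library 3 it was 11.3%. That class held only 160 cells, so counting error can carry more genes past 1.5 times. The share of library 3 therefore cannot be compared with those of library 2.

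The other genes of the cascade were for the most part not found. Of the 11 genes that start a pathway beside C1q, such as the C1r and C1s proteases and the lectins, all were in the matrix, 7 had no UMI in any cell and none reached 0.05 UMIs per thinned cell. Of 12 further component genes in the matrix, from C2 and C4b to C9, 7 had no UMI and none reached that level. Of 15 regulators, 8 had no UMI, and Cr1l was among those that reached it. Of 8 further receptors and binding partners, 1 had no UMI and C5ar2, Lrp1 and Calr reached it.

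Cr1l, which encodes the membrane regulator Crry, stood at 0.311, 0.214 and 0.224 UMIs per thinned cell in libraries 1, 2 and 3, with library 2 at 0.687 times library 1 (0.569 to 0.835). Library 3 was at 0.721 times library 1 (0.596 to 0.877), so that Cr1l was highest in library 1. In mitotic against other cells of library 2 it stood at 0.932 times (0.763 to 1.14).

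Calr, the gene of the chaperone calreticulin, which also binds the tail of C1q, was lowest in library 1, with 0.654, 1.22 and 1.46 UMIs per thinned cell. Library 2 was 1.86-fold (1.64 to 2.11) and library 3 2.23-fold (1.97 to 2.53) higher than library 1. Lrp1, a scavenger receptor that binds calreticulin, stood at 0.483, 0.375 and 0.375. C5ar2, the second receptor for C5a and the neighbour of C5ar1 on chromosome 7, stood at 0.103, 0.0885 and 0.0740, with library 3 at 0.719 times library 1 (0.516 to 1.02). C5ar1 and C5ar2 were thus ordered oppositely over the libraries, although the intervals for C5ar2 reached 1 against library 1. Over the 7 genes tested the median log2 ratio was 0.09 for library 2 over library 1, 0.32 for library 3 over library 1 and -0.11 for library 3 over library 2, beside -0.05, -0.05 and -0.02 over all tested genes.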

How the data were processed

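The authors deposited UMI counts that were not normalized, in 1 matrix of genes by cells holding all 3 libraries. The submitters' processing notes name Cell Ranger 2.1.1 and the build mm10. How cells were called and whether libraries were brought to 1 read depth is not given in the sources used here. Labels and methods name different versions of the 3′ kit. The 3 GEO groups have 1 sample each, and no source used here ties them to a barcode suffix.

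Cells were thinned to 2000 UMIs without replacement (seed 1), with 201, 22 and 38 shallower cells of libraries 1, 2 and 3 left out. No doublet caller was run and no other filter was applied. Means carry exact Poisson intervals, ratios exact conditional binomial intervals and shares Clopper-Pearson intervals at 95%. Intervals and limits for counts of 0 (3 counts) cover counting error only, and no test was made between libraries or cells. UMI totals per library were 1343055, 24097543 and 19769170, and precision was lowest in library 1.

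The genes and lists were chosen with earlier results of these data known. Named genes were the 8 genes, those of the other complement lists with at least 0.05 UMIs per thinned cell averaged over libraries, and the 5 genes outside the 8 with the highest mean correlation with summed C1q. The same rule for Itgam gave 3 genes (Rps2, Pdia3 and Tubb5) with mean r under 0.06, which are not discussed. Some results under this rule are not reported here. C3-positive cells were too few (30 per library needed) for list sums. Alternatives were other depths, seeds, filters, scalings, weights and class rules. Gene positions are from GENCODE M21, where 27645 of 27998 identifiers matched, and promoters from RefSeq. Analyses used scanpy 1.11.5, scipy 1.17.1, numpy 2.4.6 and matplotlib 3.10.9 under Python 3.11.15, with cell cycle genes from Seurat 5.3.0 under R 4.3.3.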

Additional observations from a re-analysis of the deposited data

Results flagged for a closer look

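The second gene row with the symbol Itgam, which no comparison of the report uses alone, held 368 UMIs in 351 cells, above the limit of 3 counts that a count of 0 allows. Its share of the UMIs of both rows was 1.93%, 2.08% and 3.28% in libraries 1, 2 and 3. It was singled out because it is signal in a row outside the main measurement, and whether its reads came from the overlapping Itgam gene cannot be told apart.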

How the results depend on the processing

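The summed C1q ratio of library 2 over library 1 was 1.27 with cells thinned to 1000 UMIs, 1.24 with 3000 UMIs, 1.33 with early, heat shock, ribosomal and mitochondrial genes left out of the total, 1.39 in cells with 2000 to 3500 UMIs and 1.32 in cells with at most 1 replication and 1 mitosis gene, the last 2 settings having been added after the data were seen. That of library 3 over library 1 was 1.09 with 3000 UMIs, 1.18 with those genes left out, 1.16 with size factors from the median ratio and 1.24 in cells with 2000 to 3500 UMIs. That of library 3 over library 2 was 0.889 with 1000 UMIs, 0.898 with size factors, 0.894 in cells with 2000 to 3500 UMIs and 0.871 in cells with at most 1 gene of each list. For C1q in library 2, mitotic over other cells gave 0.974 with 2 list genes, 0.921 with 5 list genes and 0.944 from unthinned counts, and replicating over other cells gave 0.985, 0.936 and, with 3000 UMIs, 0.992. All of these kept their side of 1. The number of genes past 1.5 times became 1 in cells with 2000 to 3500 UMIs for library 2 over library 1, 2 with 3000 UMIs for library 3 over library 1, and for library 3 over library 2 it became 1 in cells with 2000 to 3500 UMIs, 1 in cells with at most 1 gene of each list and 0 at 2 times. Among single-gene ratios whose interval left out 1, the ratio turned to the other side of 1 for C3ar1, library 2 over library 1 (1.04, 3000 UMIs), C1qc, library 3 over library 1 (1.03, cells with 2000 to 3500 UMIs), C1qa, replicating over other cells of library 2 (1.01, 3000 UMIs) and C3ar1, replicating over other cells of library 3 (1.01, 2 list genes), and the cause was not tested. Of the 13 single-gene ratios whose interval held 1, 7 turned under at least 1 alternative. Of these 7, 4 were of Itgb2 (down to 0.851 for library 2 over library 1, with 1000 UMIs). Thinned cells do not fix the direction of these 7. Of all alternatives for single genes, 257 of 297 between libraries and 145 of 161 between classes stayed within the interval of the reported ratio. The count between libraries includes a filter (200 genes, 500 UMIs, 10% mitochondrial) that kept all 7261 thinned cells and so could change no ratio. A stricter filter (1000 genes, 2000 UMIs, 5% mitochondrial) kept 7254 and could change little. Leaving out the 51 cells with a shared barcode, run between libraries only, or the 74 cells of over 15000 UMIs moved no summed C1q ratio beyond its interval. With 5 list genes library 3 had too few replicating cells (16) to compare. No paired analysis was possible because each group has 1 sample. Depth limits the receptor genes of library 1 most, where 408 thinned cells held 157 to 299 UMIs of each.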
